A study of Homo sapiens with 58 samples.

Results

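EPS15 and PKP2 are 2 of the 13836 named genes in a table of sites bound by the RNA-binding protein HuR in a human liver cancer line, Huh-7.5, which derives from hepatocellular carcinoma. Both were chosen because their strongest 3'UTR site stood out in libraries captured near the stress-granule protein G3BP1 after arsenite. All peaks carrying either gene name were taken, which gave 146 of 387214 peaks, 109 for EPS15 and 37 for PKP2. Every one of the 146 lies within the bounds that RefSeq gives for its gene.

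HuR, encoded by ELAVL1, is a mostly nuclear protein that binds uridine-rich stretches of introns and 3'UTRs and moves with mature mRNAs to the cytoplasm. Arsenite is an oxidative stressor that halts translation initiation, and G3BP1 is a core protein of the stress granules that then form in the cytoplasm. EPS15 encodes a scaffold of clathrin-coated pits, which binds the adaptor AP-2 and helps to gather receptors for uptake. PKP2 encodes plakophilin 2, an armadillo-repeat protein of the desmosomal plaque, which ties desmosomal cadherins to desmoplakin and so to keratin filaments.

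HuR was immunoprecipitated from UV-crosslinked cells and its RNA fragments were sequenced (CLIP-seq) in 58 libraries that make up 16 groups. The fraction libraries came from wild-type Huh-7.5 cells that had no APEX reaction, split into a nuclear and a cytoplasmic fraction, and treated either with mock or for 45 min with sodium arsenite at 0.5 mM, with 3 libraries in each of the 4 groups. The other 46 libraries came from Huh-7.5 lines that carry APEX, a peroxidase that biotinylates proteins close to it, aimed at the nucleus (NLS), at the cytoplasm (NES) or fused to G3BP1. Each of these lines was mock treated or given arsenite, and all of them, the mock groups included, were incubated with biotin phenol and hydrogen peroxide. Enriched libraries had a streptavidin capture beside the HuR immunoprecipitation and input libraries did not. The inputs of 1 library set, JL1024, have the word All in their description where its enriched libraries have a replicate number. They were taken as inputs by their titles, and whether they pool material was not given in the sources used here. Per treatment, 2 inputs and 4 enriched libraries came from NLS and as many from NES. The G3BP1 line had 4 mock and 5 arsenite inputs, and 6 mock and 7 arsenite enriched libraries. The labels do not say whether a line is 1 clone or whether the libraries of a group are separate cultures, so the tests measure the spread between libraries, which may be technical. The libraries fall into 4 sets by the prefix of their description (JL0361, JL0380, JL0388 and JL1024), and all fraction libraries are in JL0380. Fractionation therefore cannot be told apart from that set.

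Depth differed widely. Tags in peaks numbered 235471 to 673322 in fraction libraries, the inputs had 1353 to 484305 and the enriched libraries 519 to 86419, and 16 libraries held fewer than 10000. Levels are given in CPM, tags per 1000000 of the library total behind the deposited values. A single tag was worth 0.568 to 1.46 CPM in the fraction libraries and 1.06 to 214.5 CPM in the enriched ones. Of 8 hepatic marker genes, 6 had peaks, led by AFP with 13735 tags and ALB with 3784, while APOA1 and TTR had none. The non-hepatic genes PTPRC, PECAM1 and COL1A1 held 55, 5 and 0 tags. The nuclear RNA NEAT1 averaged 413 CPM in the nuclear and 125 CPM in the cytoplasmic mock libraries, whereas MALAT1, also a nuclear RNA, stood at 2561 and 2394 CPM. After arsenite NEAT1 averaged 539 CPM in the nuclear and 232 CPM in the cytoplasmic libraries, and MALAT1 2903 and 2838 CPM. Both means were thus higher after arsenite in either fraction. Whether nuclear RNA in the cytoplasmic fraction has a part in the arsenite differences there was not tested.

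Coordinates are GRCh38.p14 as the deposited table gives them, which does not state whether starts count from 0 or 1, and each peak is 20 nt long. EPS15 (ENSG00000085832) lies on the minus strand of chromosome 1, at 51354263 to 51519266 in RefSeq. Its 109 peaks held 2801 tags, rank 444 among the named genes. By class these were 7 3'UTR peaks with 1446 tags, 96 intron peaks with 1299, 4 peaks in transposable elements with 41, 1 peak classed as 5'UTR with 8 and 1 classed as other with 7. PKP2 (ENSG00000057294) lies on the minus strand of chromosome 12, at 32790755 to 32896777. Its 37 peaks held 902 tags, rank 1794, with 8 3'UTR peaks holding 546 and 29 intron peaks holding 356. The table gives the PKP2 3'UTR peaks the further annotation CDS_Retained_intron.

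In both genes a few 3'UTR sites held much of the signal. The strongest EPS15 peak, chr1:51356496-51356516, held 782 tags from 40 libraries, 27.9% of the gene's tags, and lies 2233 nt from the gene's 3' end. The second, chr1:51355699-51355719, held 496 tags from 34 libraries, 17.7%, at 1436 nt from that end. In PKP2 the strongest peak, chr12:32791089-32791109, held 355 tags from 39 libraries, 39.4% of the gene's tags, only 334 nt from the 3' end. The next PKP2 peaks, chr12:32790955-32790975 and chr12:32791852-32791872, held 79 and 31 tags.

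Intron signal was spread thinly over many sites. The median intron peak held 10 tags in either gene, with ranges of 5 to 65 for EPS15 and 5 to 34 for PKP2. The intron peaks with the most tags were chr1:51456322-51456342 in EPS15, with 65, and the peak starting at 32798521 in PKP2, with 34. The largest transposable-element peak of EPS15 starts at 51401233 and held 18 tags, and the peak classed as other starts at 51450258 and held 7.

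A single member peak lies in sequence that could be read here, the minor EPS15 peak classed as 5'UTR and intron at chr1:51422040-51422060, with 8 tags from 6 libraries. The 30 bases at chr1:51422046-51422075, minus strand, are the end of a RefSeq promoter window (GRCh38.p14) and are shown because they give the kind of letters under an EPS15 site. Capitals mark the 15 bases inside the peak.
EPS15: cattttagtgagaaaGCAATTTTTTTTTTA
The part under the peak has a run of 10 T. The motif TTTTT was searched as written on the transcribed strand and on the other strand of the last 30 bases of 35116 promoter windows, and 2.19% and 1.797% of them held it. The AU-rich core ATTTA is not in these 30 bases, and 1.247% and 1.239% of the windows held it on either strand. A match is a description of the letters and not a test of binding.

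Without stress, both genes carried more HuR tags in the cytoplasmic than in the nuclear fraction. EPS15 stood at 86.0, 89.1 and 90.8 CPM in the 3 nuclear mock libraries and at 183, 220.01 and 228.8 CPM in the 3 cytoplasmic ones, 88.6 ± 2.43 against 210.6 ± 24.3 (SD, n = 3 each). Every cytoplasmic library lay above every nuclear one. The nuclear minus cytoplasmic log2 difference was -1.22 ± 0.13 (SE; limma adjusted p = 4.75e-06). PKP2 stood at 36.4, 36.4 and 28.002 CPM in the nucleus and 55.3, 70.3 and 68.5 CPM in the cytoplasm, 33.6 ± 4.85 against 64.7 ± 8.19 (SD, n = 3 each). These groups did not overlap either, and the log2 difference was -0.90 ± 0.18 (SE; limma adjusted p = 0.0013). Of the 10637 genes tested, 32.2% were called in either direction and 18.3% were lower in the nucleus, so both members belong to a large class. No RNA level was analysed here, so more RNA, more HuR on each RNA and more cells with bound RNA cannot be told apart.

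**Figure D1:**
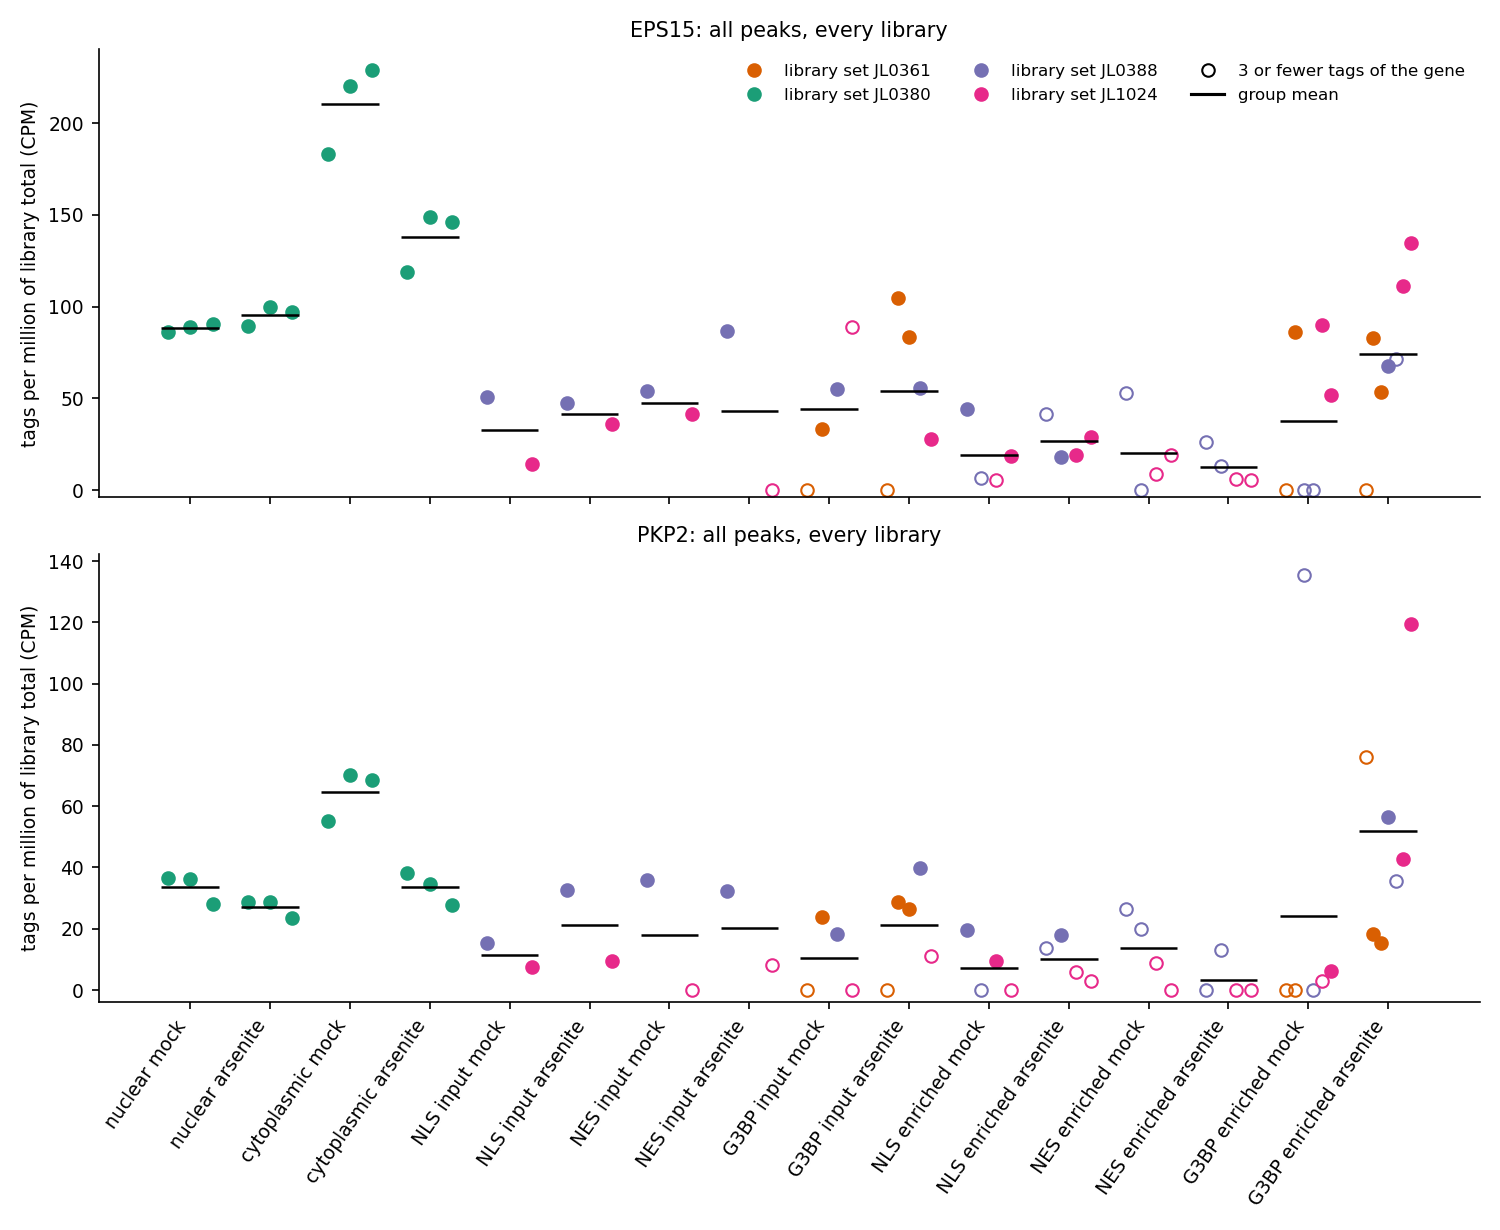
HuR tags over all peaks of EPS15 (top) and PKP2 (bottom) in CPM for each of the 58 libraries, by group along the x axis. Each point is a library coloured by library set, open where it rests on 3 tags or fewer, and the line is the group mean over all libraries. The cytoplasmic mock fraction of EPS15 lies at 183 to 228.8 CPM.

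The excess in the cytoplasm was a matter of the 3'UTR. EPS15 3'UTR peaks summed to 17.5, 29.1 and 24.1 CPM in the nuclear and 130.8, 176.2 and 183.5 CPM in the cytoplasmic mock libraries. The lowest cytoplasmic value lay far above the highest nuclear one, and the log2 difference was -2.69 ± 0.21 (SE; limma adjusted p = 6.02e-07). PKP2 3'UTR peaks summed to 7.29, 6.36 and 7.72 CPM in the nucleus against 38.3, 61.1 and 53.8 CPM in the cytoplasm, again without overlap, and differed by -2.48 ± 0.24 (SE; limma adjusted p = 4.64e-06). Of 6090 genes with a 3'UTR sum tested, 49.4% were lower in the nucleus and the median difference was -0.98, so both genes shifted in the common direction and further than the median.

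Intron signal ran the other way. EPS15 introns held 68.5, 56.4 and 65.7 CPM in the nuclear and 52.1, 43.8 and 43.2 CPM in the cytoplasmic mock libraries, which did not overlap, but the log2 difference of 0.44 missed the threshold (limma adjusted p = 0.0814). It passed when libraries were scaled to their tags in peaks (adjusted p = 0.0275) or without cytoplasmic mock library 1 (adjusted p = 0.0465). PKP2 introns held 29.1, 30.0 and 20.3 CPM in the nucleus and 17.0, 9.17 and 14.8 CPM in the cytoplasm, and differed by 0.87 ± 0.27 (SE; limma adjusted p = 0.0258). That call was lost without nuclear mock library 1 or 2 (adjusted p = 0.127 and 0.118), without cytoplasmic mock library 2 or 3 (0.116 and 0.0772) and in edgeR with TMM scaling (0.123). Over all genes, 25.1% of 7707 intron sums were higher in the nucleus, with a median of 0.48.

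The share of each gene's tags that lay in the 3'UTR also differed between the fractions. In mock cells 27.5% of EPS15 tags in the nucleus lay in the 3'UTR (69 of 251 tags, 95% Wilson interval 22.3% to 33.3%), against 77.7% in the cytoplasm (470 of 605, 74.2% to 80.8%). For PKP2 the shares were 21.3% (20 of 94, 14.2% to 30.6%) and 79.0% (147 of 186, 72.6% to 84.3%). These intervals pool the 3 libraries of a group, and tags without molecular identifiers are not independent molecules, so intervals and floors cover counting error only.

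**Figure D2:**
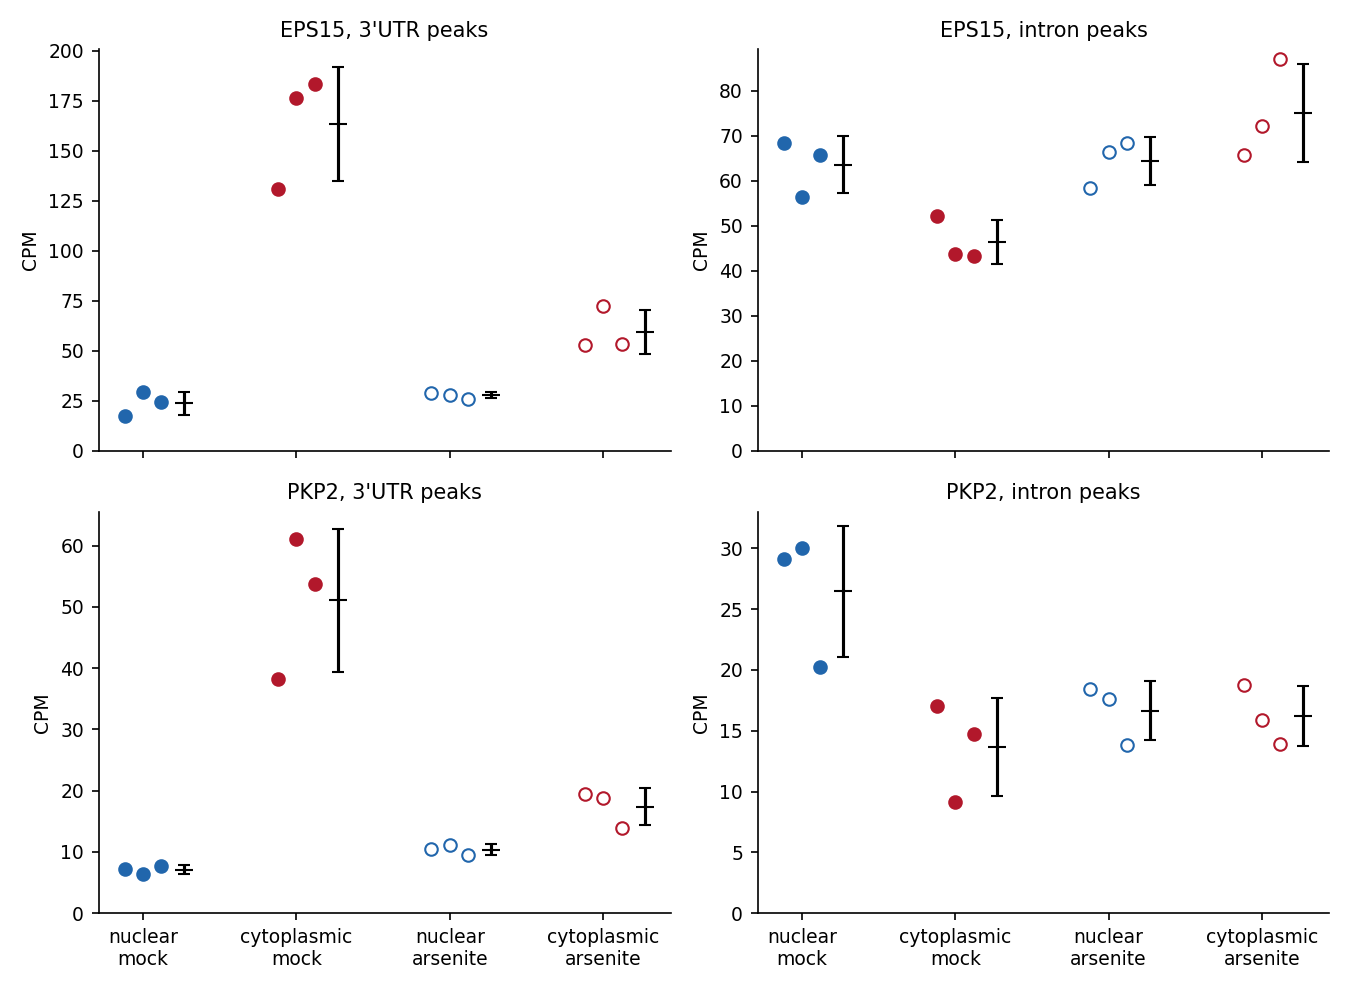
HuR tags in CPM on 3'UTR peaks and on intron peaks of EPS15 and PKP2 in the 12 fraction libraries. Points are libraries and bars give the mean ± SD of 3. The cytoplasmic mock 3'UTR values (130.8 to 183.5 CPM for EPS15, 38.3 to 61.1 CPM for PKP2) stand above all other groups, while intron values lie closer together.

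At single sites, 5 of the 60 member peaks tested in mock cells were lower in the nucleus and 0 were higher, against 2.29% lower and 0.53% higher over all 157168 peaks tested. All 5 are 3'UTR peaks. The main EPS15 peak at 51356496 measured 5.83, 19.1 and 10.6 CPM in the nuclear and 81.9, 113.1 and 102.3 CPM in the cytoplasmic libraries, a log2 change of -2.94 ± 0.34 (SE; limma adjusted p = 0.00203). The second EPS15 peak at 51355699 measured 10.2, 6.36 and 10.6 CPM against 42.5, 48.9 and 70.6 CPM, -2.30 ± 0.29 (SE; limma adjusted p = 0.00296). In both peaks each cytoplasmic library exceeded each nuclear one. The main PKP2 peak at 32791089 measured 5.83, 6.36 and 6.76 CPM in the nucleus and 21.3, 40.7 and 38.0 CPM in the cytoplasm, without overlap, -2.002 ± 0.30 (SE; limma adjusted p = 0.00758).

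The other called PKP2 peaks rest on few nuclear tags. The peak at 32791852 held no tag in any nuclear mock library and measured 4.25, 9.17 and 5.27 CPM in the cytoplasmic ones. That is at least 5.90-fold higher against a floor of 3 tags over the group (limma adjusted p = 0.0131). It met the filter on low values only through the cytoplasmic libraries, where it is high, so its call is a description and lends no support. The peak at 32790955 held 1 tag in the nuclear mock group and 17 in the cytoplasmic one, a ratio of 16.7 with an exact counting interval of 2.62 to 698.5 (limma adjusted p = 0.026). It too needed the cytoplasmic libraries to meet the filter, and its call is a description. All 6 tested 3'UTR peaks of EPS15 and all 6 of PKP2 had a negative difference, whereas 22 of 35 tested EPS15 intron peaks and 9 of 13 PKP2 intron peaks had a positive one. Peaks of a gene are not replicates, and only 35 of 96 EPS15 and 13 of 29 PKP2 intron peaks met the filter. The share of each sign over all peaks was not counted here. Over all genes the medians of 3'UTR and intron sums, -0.98 and 0.48, had the same signs.

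Each of these 5 calls was lost without some library. Without cytoplasmic mock library 2 or 3 none of the 5 calls remained, with adjusted p of 0.0753 and 0.105 for the main EPS15 peak. The main EPS15 call was also lost without cytoplasmic mock library 1 (0.0699), and the second EPS15 peak without nuclear mock library 2 (0.0615) or cytoplasmic mock library 1 (0.056), 2 (0.0753) or 3 (0.0897). The main PKP2 peak was lost without nuclear mock library 2 (0.109) or 3 (0.0911) and cytoplasmic mock library 2 (0.0753) or 3 (0.138). The peak at 32791852 was lost without nuclear mock library 2 (0.126) or 3 (0.108) and without each cytoplasmic library (0.0777, 0.0753 and 0.134). The peak at 32790955 was lost without nuclear mock library 2 (0.164) or 3 (0.167) and without each cytoplasmic library (0.144, 0.105 and 0.18). In edgeR with TMM scaling the last pair of peaks was not called (adjusted p = 0.124 and 0.0901), and at a pseudocount 4 times smaller the peak at 32790955 was not (0.058). The direction of these differences was negative in every one of these fits.

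**Figure D3:**
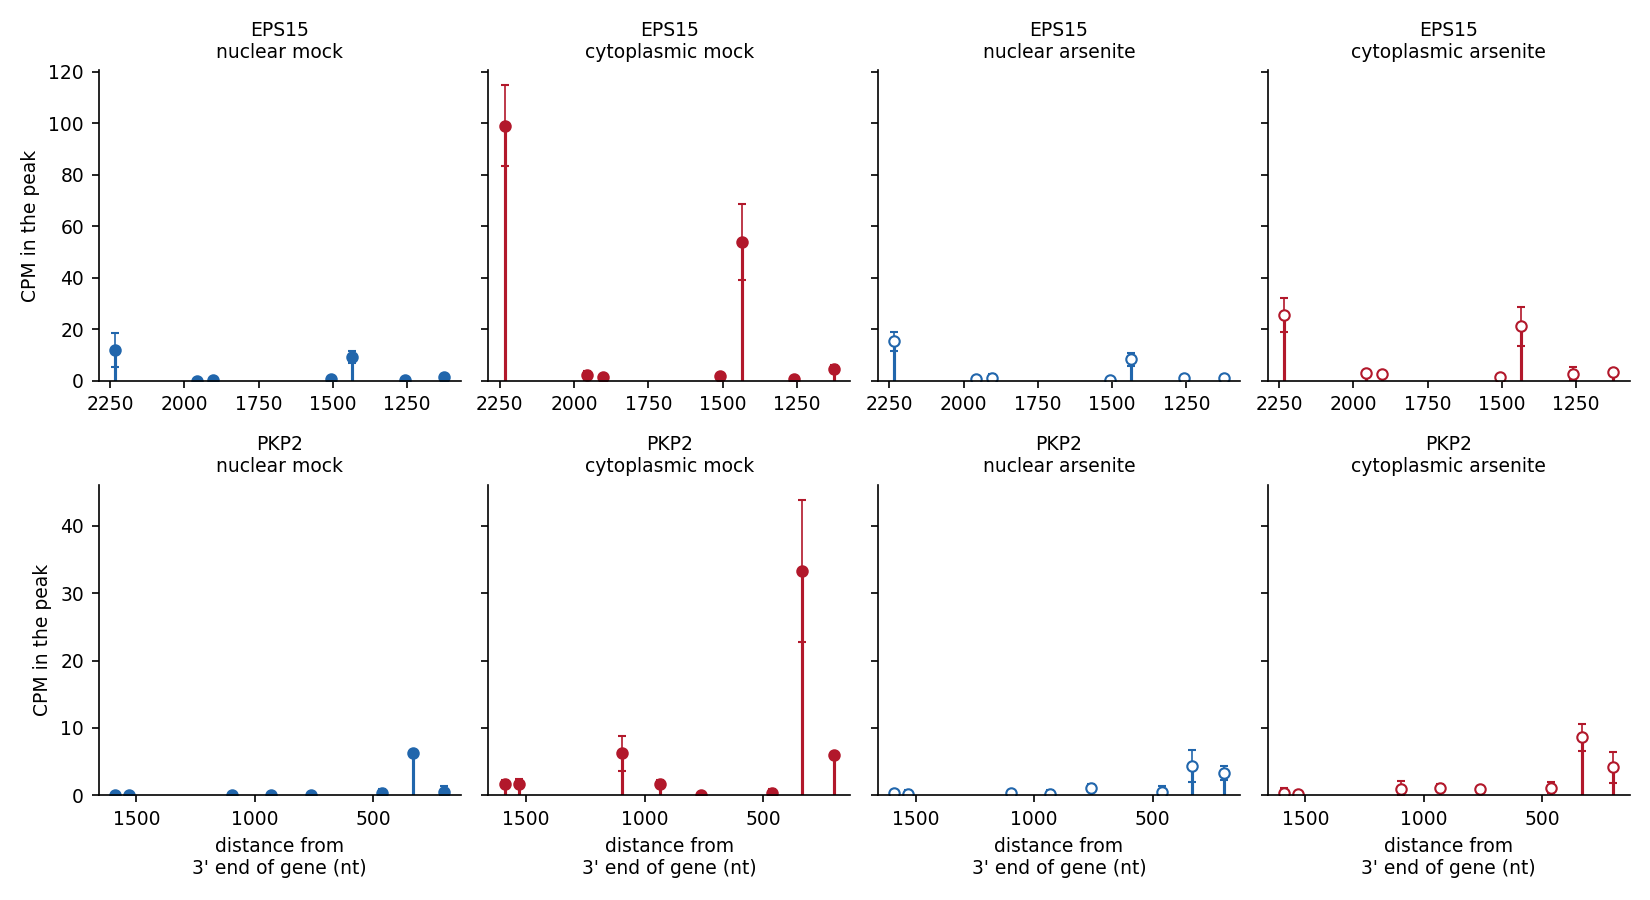
HuR tags in CPM on each 3'UTR peak of EPS15 and PKP2, by distance in nt from the annotated 3' end of the gene, for the 4 fraction groups. Points are means of 3 libraries and bars are SD. The EPS15 peaks at 2233 and 1436 nt and the PKP2 peak at 334 nt rise above the rest in the cytoplasmic mock group.

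Arsenite lowered the HuR tags of both genes in the cytoplasm. EPS15 measured 119.1, 148.9 and 146.1 CPM in the cytoplasmic arsenite libraries (138.0 ± 16.5, SD, n = 3), all below the 3 cytoplasmic mock values. The arsenite minus mock log2 difference was -0.60 ± 0.14 (SE; limma adjusted p = 0.00563), and it missed the threshold without cytoplasmic mock library 2 (-0.57, adjusted p = 0.0584) or cytoplasmic arsenite library 1 (-0.50, 0.0651) or 2 (-0.66, 0.0618). PKP2 measured 38.3, 34.7 and 27.8 CPM (33.6 ± 5.30, SD, n = 3), again all below mock, -0.90 ± 0.17 (SE; limma adjusted p = 0.00153). Over 11308 genes tested, 9.91% were lower after arsenite in the cytoplasm.

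The fall lay in the 3'UTR. EPS15 3'UTR peaks summed to 52.7, 72.2 and 53.6 CPM in cytoplasmic arsenite libraries, with the highest of them under the lowest mock value of 130.8, -1.42 ± 0.18 (SE; limma adjusted p = 8.65e-05). PKP2 3'UTR peaks summed to 19.5, 18.8 and 13.9 CPM against a lowest mock value of 38.3, -1.43 ± 0.22 (SE; limma adjusted p = 0.0005), a call lost only without cytoplasmic arsenite library 2 among the fits run (adjusted p = 0.0552). Among 6685 3'UTR sums tested, 18.6% were lower after arsenite and the median was -0.30.

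EPS15 intron signal rose in the same libraries while that of PKP2 did not pass the test. EPS15 introns measured 65.7, 72.2 and 86.9 CPM in cytoplasmic arsenite libraries, all above the mock values of 43.2 to 52.1, 0.66 ± 0.18 (SE; limma adjusted p = 0.021). The call was lost without cytoplasmic mock library 2 (0.102) or 3 (0.0827) and without cytoplasmic arsenite library 1 (0.0681), 2 (0.108) or 3 (0.155). PKP2 introns measured 18.8, 15.9 and 13.9 CPM and overlapped the mock values, 0.24 (limma adjusted p = 0.594). Over 8068 intron sums, 13.5% were higher and the median was 0.29. As a result 43.5% of EPS15 tags (277 of 637, Wilson interval 39.7% to 47.4%) and 51.9% of PKP2 tags (80 of 154, 44.1% to 59.7%) in the cytoplasm lay in the 3'UTR after arsenite, against the 77.7% and 79.0% of mock cells.

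Of 75 member peaks tested for arsenite in the cytoplasm, 2 were lower and 1 was higher, against 0.52% lower and 0.24% higher over 193897 peaks. The main EPS15 peak at 51356496 fell to 18.0, 31.3 and 27.1 CPM from 81.9 to 113.1 CPM in mock, -1.89 ± 0.24 (SE; limma adjusted p = 0.00978). The main PKP2 peak at 32791089 fell to 10.8, 7.96 and 6.96 CPM from 21.3 to 40.7 CPM, -1.68 ± 0.30 (SE; limma adjusted p = 0.0365). The second EPS15 peak measured 21.7, 28.4 and 13.2 CPM, below all 3 mock values, and was not called in limma with the filter on low values and no replicate block, but was with the block (adjusted p = 0.0471), with every peak tested (-1.29, adjusted p = 0.0466) and in edgeR with library totals (0.00633). The peak that rose is an EPS15 intron site, chr1:51362683-51362703, with 5.78, 5.68 and 6.26 CPM after arsenite against 1.06, 0 and 0 CPM in mock. That is 27 tags against 1, a ratio of 16.9 with an exact counting interval of 2.79 to 692.5 (limma adjusted p = 0.0287). This intron peak met the filter on low values through the arsenite libraries, where it is high. Its call is therefore a description and lends no support to a rise.

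None of these 3 peak calls survived leaving out a cytoplasmic mock library. Without library 1, 2 or 3 of that group the adjusted p was 0.0594, 0.245 and 0.146 for the main EPS15 peak, 0.0844, 0.245 and 0.268 for the main PKP2 peak, and 0.086, 0.245 and 0.216 for the EPS15 intron peak. The main PKP2 peak was also lost without cytoplasmic arsenite library 2 (0.0605). PKP2's peak at 32791852 was called only without cytoplasmic arsenite library 1 (-1.66, adjusted p = 0.0372). The log2 differences kept their sign.

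In the nucleus neither gene's summed tags passed the test for arsenite. EPS15 measured 89.7, 99.99 and 97.0 CPM (95.6 ± 5.31, SD, n = 3), which overlap the mock libraries, 0.11 ± 0.11 with a 95% interval of -0.13 to 0.34 (limma adjusted p = 0.665). PKP2 measured 28.8, 28.8 and 23.4 CPM (27.004 ± 3.13, SD, n = 3), -0.29 ± 0.19 with an interval of -0.68 to 0.10 (limma adjusted p = 0.41). Over 10799 genes, 7.84% were called in either direction. The 3'UTR sums of 28.8, 27.997 and 26.0 CPM for EPS15 and of 10.4, 11.2 and 9.53 CPM for PKP2 gave 0.23 (adjusted p = 0.582) and 0.43 (adjusted p = 0.391), and 0 of 74 member peaks were called by limma or edgeR, 8 having an unadjusted p under 0.05, against 0.186% of all peaks. All 3 PKP2 3'UTR values after arsenite lay above the 3 mock values. PKP2 introns measured 18.4, 17.6 and 13.9 CPM after arsenite, all below the mock values of 20.3 to 30.0 CPM, with a difference of -0.59 ± 0.22 that did not pass (limma adjusted p = 0.129). EPS15 introns measured 58.5, 66.4 and 68.4 CPM and overlapped mock, 0.02 (adjusted p = 0.955). Of 6001 3'UTR sums tested, 13.8% were higher in the nucleus after arsenite.

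After arsenite EPS15 was still lower in the nucleus, -0.51 ± 0.11 (SE; limma adjusted p = 0.00317), with its 3 nuclear libraries at 89.7 to 99.99 CPM under the 3 cytoplasmic ones at 119.1 to 148.9 CPM. That call was lost without nuclear arsenite library 3 (adjusted p = 0.0991) or cytoplasmic arsenite library 2 (0.12) or 3 (0.0584). PKP2 overlapped between the fractions, -0.29 ± 0.18 with an interval of -0.65 to 0.07 (limma adjusted p = 0.378). Of 11507 genes, 8.07% were called and 5.51% were lower in the nucleus. The EPS15 3'UTR sum was lower in the nucleus by -1.03 ± 0.16 (SE; limma adjusted p = 0.000211), lost without nuclear arsenite library 3 (0.0843) or cytoplasmic arsenite library 2 (0.0532). The PKP2 3'UTR sum did not pass, -0.63 ± 0.23 (SE; limma adjusted p = 0.126), and 9.89% of 6591 3'UTR sums were lower. Limma called 0 of the 88 member peaks tested, with 14 at an unadjusted p under 0.05, against 0.257% of all peaks. In edgeR with library totals 1 was, the second EPS15 peak (-1.37, adjusted p = 0.00907).

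The change of the nuclear minus cytoplasmic difference with arsenite was tested directly. For all EPS15 peaks it was 0.71 ± 0.18 (SE; limma adjusted p = 0.00441), and for PKP2 0.62 ± 0.26 with an interval of 0.09 to 1.14 (limma adjusted p = 0.117). Of 12629 genes, 8.06% had a positive call. For 3'UTR sums it was 1.66 ± 0.27 in EPS15 (SE; limma adjusted p = 3.58e-06) and 1.86 ± 0.36 in PKP2 (SE; limma adjusted p = 8.82e-05), where 24.2% of 7282 genes had a positive call and the median was 0.63. Intron sums gave -0.64 (limma adjusted p = 0.0852) and -0.83 (adjusted p = 0.136). The EPS15 intron value passed without cytoplasmic mock library 1 (-0.72, adjusted p = 0.0309). Of 133 member peaks tested, 1 was called, the main EPS15 peak with 2.29 ± 0.41 (SE; limma adjusted p = 0.000182), against 0.318% positive over all peaks. On simulated data this single-peak fit made more false than true calls. The call was lost when libraries were scaled to their tags in peaks (1.79, adjusted p = 0.054) and without nuclear arsenite library 3 (0.0564), cytoplasmic mock library 2 (0.0504) or cytoplasmic arsenite library 2 (0.067).

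**Figure D4:**
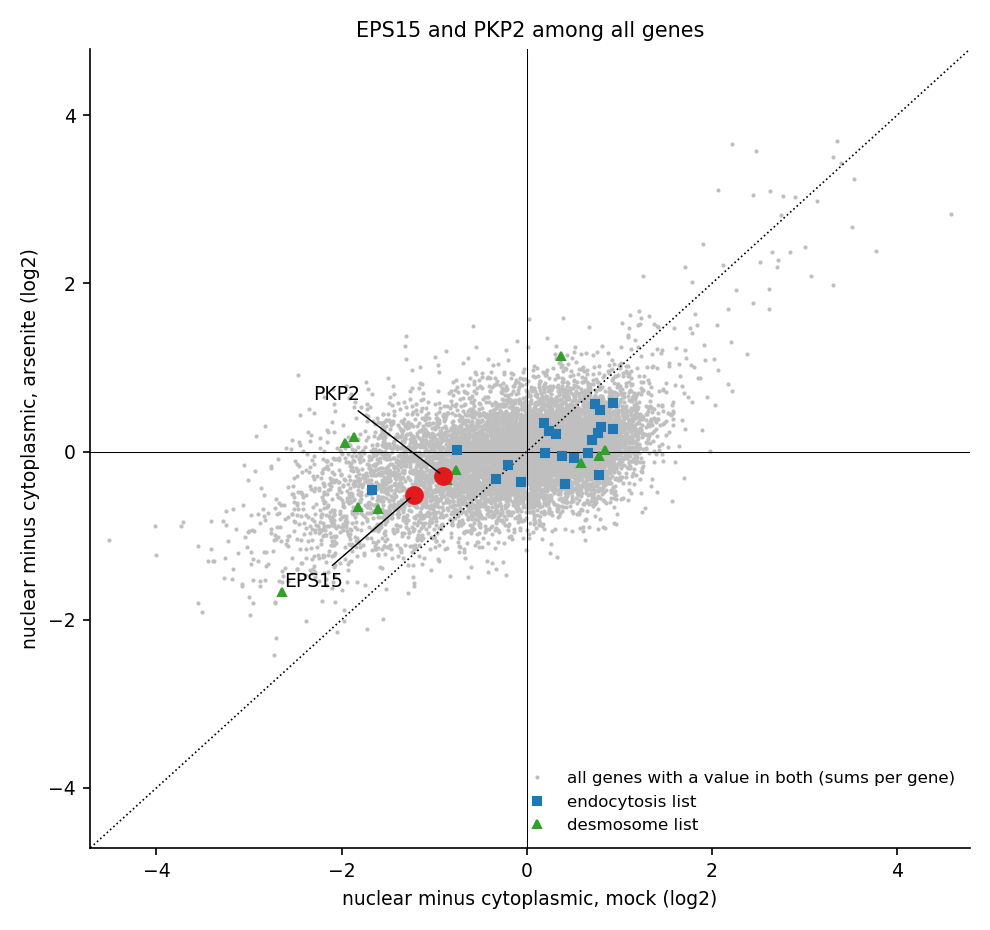
Nuclear minus cytoplasmic log2 difference in mock cells (x axis) against the same after arsenite (y axis) for each of 10148 genes tested in both, from the limma fits. EPS15 and PKP2 are red, genes of the endocytosis list blue squares and genes of the desmosome list green triangles. EPS15 moves from -1.22 to -0.51 and PKP2 from -0.90 to -0.29.

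The genes whose levels over the 12 fraction libraries were most like each member were found among 6234 genes with a mean of at least 5 CPM. For EPS15 these were ARL6IP1, QKI and GLUD1, with Pearson r of 0.9885, 0.9856 and 0.9847 on the log2 scale. For PKP2 they were TFPI, ITGB1 and NUTF2, with 0.9694, 0.9644 and 0.9631. The members themselves had r = 0.8155 with each other. Each of the 6 genes was highest in the cytoplasmic mock group, for example ARL6IP1 with 182.7 CPM there against 30.0, 33.5 and 67.2 CPM in nuclear mock, nuclear arsenite and cytoplasmic arsenite. All these points share the same 12 libraries, and the values are a description.

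Around EPS15, a list of 25 genes of clathrin-mediated endocytosis had peaks for 23. In mock cells 6 of 21 tested were higher in the nucleus and 1 was lower, with a median of 0.41 against 0.01 over all genes, the opposite sign to EPS15. Without nuclear mock library 3 the 6 became 3, and without cytoplasmic mock library 2 there were 3 higher and 2 lower. Over all genes 13.8% were higher and 18.3% lower. EPS15L1, the close relative of EPS15, stood at 0.94 ± 0.27 (SE; limma adjusted p = 0.0144). TFRC, the transferrin receptor, was the gene that was lower, at -1.67 ± 0.16 (adjusted p = 1.31e-06). The EPS15L1 call was lost without nuclear mock library 2 (0.0781) or 3 (0.0506) or cytoplasmic mock library 2 (0.0681).

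After arsenite in the cytoplasm 5 of 22 genes of the endocytosis list were higher and 1 was lower, with a median of 0.41 against 0.06 over all genes, of which 10.2% were higher and 9.91% lower. The 5 became 2 without cytoplasmic mock library 2 or 3 or cytoplasmic arsenite library 1, and 1 without cytoplasmic arsenite library 2 or 3. TFRC fell by 1.72 on the log2 scale (limma adjusted p = 1.93e-06), as EPS15 also fell. The scaffold gene ITSN1 rose by 0.70 (adjusted p = 0.0205), but not without cytoplasmic mock library 1 (0.0557) or cytoplasmic arsenite library 1 (0.104), 2 (0.155) or 3 (0.0927). In the nucleus, where 5.57% of all genes were higher and 2.28% lower, 2 of 22 were higher, among them REPS1, which encodes an EH-domain protein as EPS15 does, by 0.62 (adjusted p = 0.0343). The count fell to 0 without nuclear mock library 1 or 3 or any 1 of the nuclear arsenite libraries. The REPS1 call was lost without nuclear mock library 1 (0.166) or 3 (0.0959) or nuclear arsenite library 1 (0.129), 2 (0.214) or 3 (0.156). Between the fractions after arsenite 0 of 22 passed in limma or edgeR without the replicate block, and 1 was lower in the nucleus with it, with 3 at an unadjusted p under 0.05, against 8.07% of all genes called. The interaction was positive for TFRC (1.22, adjusted p = 0.000167) and negative for PICALM, a clathrin assembly gene (-0.69, adjusted p = 0.00392), and EGFR, the receptor for epidermal growth factor (-0.58, adjusted p = 0.0185), of 23 tested, against 8.06% positive and 5.45% negative over all genes. The EGFR call was lost without nuclear mock library 3 (0.101), nuclear arsenite library 3 (0.0838), cytoplasmic mock library 2 (0.0845) or 3 (0.056), or cytoplasmic arsenite library 2 (0.0949) or 3 (0.0831).

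Around PKP2, a list of 17 desmosome and armadillo genes had peaks for 13. In mock cells 6 of 11 tested were lower in the nucleus, as PKP2 was, and 3 were higher, against 18.3% lower and 13.8% higher over all genes. The list's median was -0.86 and that of all genes 0.01. PERP, a desmosome-associated membrane protein gene, stood at -2.64 ± 0.43 (SE; limma adjusted p = 0.000254), the desmosomal cadherin DSC2 at -1.96 ± 0.40 (adjusted p = 0.00157) and CTNNB1, which encodes beta-catenin, at -1.87 ± 0.15 (adjusted p = 2.15e-07). The DSC2 call was lost without cytoplasmic mock library 2 (0.0626). After arsenite in the cytoplasm 5 of 11 were lower and 3 higher, against 9.91% and 10.2% of all genes, with a median of -0.67 against 0.06. Without cytoplasmic arsenite library 2 there were 1 lower and 2 higher, and without cytoplasmic mock library 2 or cytoplasmic arsenite library 3 there were 3 lower. DSC2 fell by 1.71 (adjusted p = 0.0024), the classical cadherin CDH1 by 1.26 (adjusted p = 0.00111) and CTNNB1 by 1.19 (adjusted p = 2.52e-05). DSC2 was not called without cytoplasmic mock library 2 (0.0539) or cytoplasmic arsenite library 2 (0.0861), and CDH1 not without the latter (0.0691).

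In the nucleus 1 of 11 tested genes of the desmosome list passed for arsenite, against 5.57% higher and 2.28% lower over all genes. It was CTNNB1, higher after arsenite by 0.85 (limma adjusted p = 9.45e-06), a call lost without nuclear arsenite library 3 (0.0634). Between the fractions after arsenite, where 2.56% of all genes were higher in the nucleus and 5.51% lower, PERP was lower in the nucleus at -1.67 (adjusted p = 0.000325), the neural cadherin gene CDH2 at -0.33 (adjusted p = 0.0448), and DSP, which encodes desmoplakin, was higher at 1.13 (adjusted p = 0.0282). PERP was not called without cytoplasmic arsenite library 2 (0.062). DSP was not called without nuclear arsenite library 1 (0.14), 2 (0.0561) or 3 (0.134) or cytoplasmic arsenite library 1 (0.113), 2 (0.196) or 3 (0.0581). CDH2 was not called when scaled to tags in peaks (-0.25, adjusted p = 0.0747), at a pseudocount 4 times smaller (0.0515), or without nuclear arsenite library 1 (0.114) or 3 (0.196) or cytoplasmic arsenite library 1 (0.151), 2 (0.18) or 3 (0.133). The interaction was called in 6 of 11, 3 in each direction, against 8.06% positive and 5.45% negative over all genes, led by DSC2 (2.07, adjusted p = 0.00403) and CTNNB1 (2.04, adjusted p = 1.36e-13), with CTNND1, which encodes p120-catenin, at -0.84 (adjusted p = 5.79e-05). In the input and enriched comparisons limma with all libraries and the filter on low values called 0 genes of either list, from 6 to 20 tested, with at most 2 at an unadjusted p under 0.05, while edgeR with library totals called up to 10 of 14 (endocytosis, enriched against input in JL0361). In that comparison limma without G3BP1 arsenite input 1 called 9 of 18 endocytosis genes and 1 of 11 desmosome genes lower, and without enriched arsenite library 1 it called 2 desmosome genes lower. For arsenite against mock in the JL0361 enriched libraries it called 3 genes of each list higher without enriched arsenite library 1. For G3BP1 against NES in mock it called 1 desmosome gene with no filter or without G3BP1 enriched mock library 3. Both lists were chosen with earlier results known, and their counts are a description.

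Both members were picked from the contrast of enriched libraries of the G3BP1 and NES lines after arsenite, so the values that follow are a description with no test. In the sets that hold both lines, JL0388 and JL1024, 6 of 1223 peaks tested were called, or 0.491%. All 6 are 3'UTR peaks higher near G3BP1, in EPB41L5, EPS15, GABPB1, MARCKS, PKP2 and SCD. EPS15 stood at 67.6, 71.3, 111.0 and 134.4 CPM in the 4 G3BP1 libraries and at 26.1, 13.1, 6.21 and 5.31 CPM in the 4 NES libraries. PKP2 stood at 56.4, 35.6, 42.7 and 119.5 CPM near G3BP1, and had 1 tag in the NES libraries, worth 13.1 CPM in that one. In each line 1 pair of JL0388 libraries did not differ detectably beyond the sampling noise and was counted as 1 sample. On that count EPS15 averaged 105.0 ± 32.9 against 10.4 ± 8.02 CPM and PKP2 69.4 ± 43.4 against 2.19 ± 3.79 CPM (SD, n = 3 each).

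Few tags stand behind these levels. The 4 G3BP1 libraries held 30 EPS15 and 19 PKP2 tags of a total of 300818, and the 4 NES libraries 8 and 1 of 1162147. The main EPS15 peak had 33.8, 71.3, 85.4 and 59.7 CPM near G3BP1, from 19 tags, and no tag in the NES libraries, at least 24.5-fold higher against 3 tags over the group. The main PKP2 peak had 45.1, 35.6, 42.7 and 74.7 CPM, from 15 tags, and none in NES, at least 19.3-fold higher on the same floor. The median peak tested also leaned toward G3BP1, with a log2 difference of 0.83.

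The same lines without arsenite took no part in the choice. EPS15 measured 0, 0, 89.8 and 51.9 CPM near G3BP1 and 52.9, 0, 8.74 and 19.0 CPM in NES libraries, which overlap, -0.05 ± 1.59 with an interval of -3.31 to 3.22 (limma adjusted p = 0.995). The EPS15 zeros near G3BP1 came from libraries with totals of 14760 and 4662, where a tag is worth 67.8 and 214.5 CPM. PKP2 measured 135.5, 0, 2.99 and 6.35 CPM near G3BP1, the first from 2 tags, and 26.4, 19.9, 8.74 and 0 CPM in NES libraries, -0.04 ± 1.61 (SE; limma adjusted p = 0.995). Pooled over libraries and not tested, EPS15 had 60.9 CPM (79 tags) near G3BP1 and 16.2 CPM (5 tags) in NES. PKP2 had 6.93 CPM (9 tags) and 9.74 CPM (3 tags). In limma 0 of 1707 genes were called (0%), with 87 at an unadjusted p under 0.05, and edgeR called 6 with library totals and 0 with TMM. These intervals span several-fold changes either way, so limma could not detect a difference at this depth. In edgeR with library totals the values were 1.765 for EPS15 and 1.24 for PKP2, neither of them called. The median over all genes was 0.20, and -0.15 when libraries were scaled to their tags in peaks.

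The first library set, JL0361, holds only the G3BP1 line and also took no part in the choice. After arsenite its 3 enriched libraries held 0, 50 and 28 EPS15 tags, or 0, 82.7 and 53.4 CPM, and its 2 mock libraries 0 and 85.9 CPM, the latter from 13 tags. The groups overlap, 0.64 ± 2.35 with an interval of -3.97 to 5.24 (limma adjusted p = 0.966). PKP2 had 76.1, 18.2 and 15.3 CPM after arsenite, from 1, 11 and 8 tags, and no tag in either mock library. Its fitted difference of 3.74 ± 2.22 depends on the pseudocount (limma adjusted p = 0.498). Without G3BP1 arsenite library 1, which holds the single tag, it was 3.05 with an adjusted p of 0.0421, in a fit that called 1728 of 4656 genes, all higher. Limma called 0 of 4700 genes (0%), with 30 at an unadjusted p under 0.05, and edgeR called 15 with library totals and 0 with TMM. The median over all genes was 0.72, or 0.66 with the scaling to tags in peaks.

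Against the inputs of the same set and treatment, capture did not detectably raise either gene. The 3 JL0361 inputs after arsenite measured 0, 104.6 and 83.7 CPM for EPS15 and 0, 28.9 and 26.5 CPM for PKP2, and both overlap the enriched libraries. The enriched minus input difference was -0.32 ± 1.47 for EPS15 (interval -3.21 to 2.57, limma adjusted p = 0.954) and 1.26 ± 1.52 for PKP2 (interval -1.72 to 4.24, adjusted p = 0.849). With the replicate number as a block these were -0.32 ± 1.09 (adjusted p = 0.875) and 1.26 ± 1.19 (adjusted p = 0.544). The fit called 4 of 6211 genes, or 0.0644%, all lower, against 0 with the block and 2586 in edgeR with library totals. The median over all genes was -0.66, and -0.13 with the scaling to tags in peaks, under which the EPS15 value was 0.40. The PKP2 value was -0.63 in edgeR with library totals. PKP2 was lower after capture in libraries 2 and 3, at 18.2 and 15.3 CPM. In library 1 it had 76.1 CPM from 1 tag against 0 in the input.

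Near the nuclear APEX, EPS15 had 44.3, 6.83, 5.67 and 18.8 CPM in mock and 41.6, 17.8, 19.1 and 29.03 CPM in arsenite enriched libraries. PKP2 had 19.7, 0, 9.46 and 0 CPM there in mock and 13.9, 17.8, 5.73 and 2.90 CPM after arsenite. Mock and arsenite overlap for both genes. In each enriched NLS group 1 pair of libraries also did not differ detectably beyond the sampling noise. With such a pair counted as 1 sample EPS15 averaged 26.0 ± 5.94 CPM after arsenite and 16.7 ± 10.1 CPM in mock (SD, n = 3 each).

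In the input libraries no arsenite effect was detectable beyond their spread. EPS15 measured 50.6 and 14.5 CPM in NLS mock, 47.5 and 35.9 CPM in NLS arsenite, 53.9 and 41.3 CPM in NES mock and 86.6 and 0 CPM in NES arsenite inputs. The G3BP1 line gave 0, 33.2, 54.9 and 89.0 CPM in mock and 0, 104.6, 83.7, 55.5 and 27.6 CPM after arsenite. With the line and library set in the model the arsenite minus mock difference was -0.03 ± 0.73 (interval -1.49 to 1.44, limma adjusted p = 0.994). PKP2 inputs measured 15.4 and 7.63 CPM in NLS mock, 32.7 and 9.53 CPM in NLS arsenite, 35.96 and 0 CPM in NES mock and 32.2 and 8.16 CPM in NES arsenite libraries. The G3BP1 line gave 0, 23.7, 18.3 and 0 CPM in mock and 0, 28.9, 26.5, 39.8 and 11.1 CPM after arsenite. All mock and arsenite groups overlap, and the PKP2 difference was 1.02 ± 0.66 (interval -0.30 to 2.34, limma adjusted p = 0.613). Limma called 0 of 7458 genes (0%), with 678 at an unadjusted p under 0.05, and edgeR 420 with library totals (101 higher and 78 lower with TMM), and the median over all genes was 0.30, or 0.16 with the scaling to tags in peaks.

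Where the APEX libraries held enough tags, the part of each gene that was bound could be compared. In JL0361 after arsenite, 75 of 78 EPS15 tags in the G3BP1-enriched libraries lay in the 3'UTR (96.2%, Wilson interval 89.3% to 98.7%), against 162 of 217 in the inputs (74.7%, 68.5% to 80.0%). The enriched minus input log2 difference was -0.09 for the EPS15 3'UTR sum and -1.75 for its intron sum (limma adjusted p = 0.994 and 0.848). Medians over all genes were -0.35 for 3'UTR and -1.16 for intron sums, so a rise of the 3'UTR share with capture is not particular to EPS15. The G3BP1-enriched arsenite libraries of the other sets had 19 of 22 there (86.4%, JL1024) and 7 of 8 (87.5%, JL0388), but these are the libraries in which a high 3'UTR peak chose EPS15 and PKP2, so their shares are a description that the choice raises. In mock the G3BP1-enriched libraries had 11 of 13 (84.6%) in JL0361 and 49 of 79 (62.0%, 51.0% to 71.9%) in JL1024. For PKP2 in JL0361 after arsenite, 20 of 20 tags of the G3BP1-enriched libraries lay in the 3'UTR (Wilson interval 83.9% to 100%), where the inputs had 60 of 64 (93.8%, 85.0% to 97.5%). The input of another set differed: only 15 of 46 EPS15 tags in the JL0388 arsenite input of the G3BP1 line, 1 library, were in the 3'UTR (32.6%). The share thus differed between these JL0361 and JL0388 inputs, the latter a single library. The part of the library set in the differences between groups was not tested.

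The split of tags between the 2 main EPS15 sites was counted by group and library set, with no test over libraries. Of the tags on both, the share at the second, 51355699, was 41.0% in nuclear mock (25 of 61), 35.2% in cytoplasmic mock (155 of 440, Wilson interval 30.9% to 39.8%), 34.9% in nuclear arsenite (30 of 86) and 45.4% in cytoplasmic arsenite (99 of 218, 38.9% to 52.0%). In JL0361 after arsenite it was 62.2% in G3BP1-enriched libraries (46 of 74, 50.8% to 72.4%) and 43.3% in the inputs (65 of 150, 35.7% to 51.3%). The G3BP1-enriched mock libraries had 9.09% in JL0361 (1 of 11, 1.62% to 37.7%) and 43.2% in JL1024 (19 of 44, 29.7% to 57.8%). In JL1024 the NLS-enriched arsenite libraries put 84.6% there (11 of 13, 57.8% to 95.7%) and the G3BP1-enriched arsenite libraries 17.6% (3 of 17). In JL0388 the latter had 1 of 6 tags there (16.7%). EPS15 was chosen for a high level of the other site, 51356496, in the JL1024 and JL0388 G3BP1-enriched arsenite libraries. That lowers the share at the second site there, so these arsenite libraries are not compared with JL0361.

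**Figure D5:**
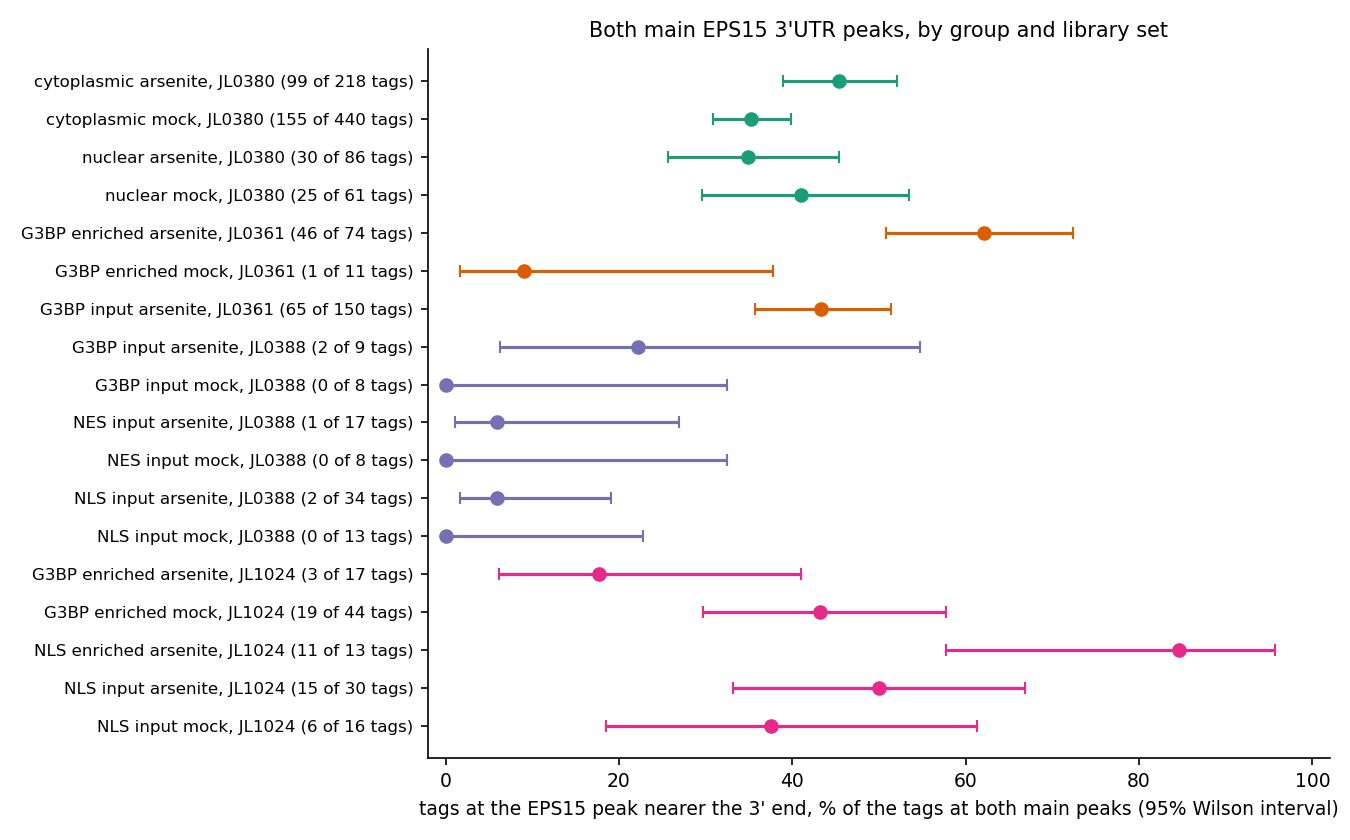
Share of tags at the second EPS15 3'UTR peak among the tags on both main EPS15 peaks, in percent, for each group and library set with at least 8 such tags. Points pool the libraries of a group in a set and bars are 95% Wilson intervals, which cover counting error only. The 4 fraction groups lie between 34.9% and 45.4%, and the APEX groups range more widely.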

How the data were processed

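The deposited table gives HuR signal for every peak in every library, each value being a count of tags over a library total. This reading comes from the values: whole tags were recovered for 100% of them at a tolerance of 0.01, with totals of 4662 to 2622677. Bowtie2, SAMtools, bedtools and HOMER and the build GRCh38.p14 are named in the submitters' processing notes, with no versions, and the settings are not given in the sources used here. Of 395471 lines, 8257 repeated another and were dropped, leaving 387214 peaks and 7887093 tags.

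Libraries were grouped by their titles. Values were summed per gene, and per gene and annotation class, and tested in R 4.3.3 with limma 3.58.1 (lmFit, then eBayes with trend) on log2(CPM + 2.28), so fold changes of low features are understated. A feature needed a tag in as many libraries as the smaller group has. All tests are two-sided, adjusted by Benjamini-Hochberg over every feature tested, with a threshold of 0.05. Gene-level calls on the recovered tags in edgeR (version 4.0.16) with library totals are given where limma made few. The fits were tested on simulated data with known changes, of which limma found a part in the gene sums of fractions and inputs, none in those of the enriched comparisons and few or none at single peaks. Of 200 changed genes, edgeR with library totals found 28, 3 and 64 in the 3 enriched comparisons, with 2, 0 and 6 false calls. In the inputs it found 153 with 8 false calls, where limma found 21 with 1. Tables and plots were made with Python 3.11.15 (matplotlib 3.10.9, scipy 1.17.1, pandas 2.3.3, numpy 2.4.6).

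Among 32 replicate pairs, 5, all in JL0388, did not differ detectably beyond the sampling noise over their tags. Such a pair counts as 1 sample in means with an SD, while the fits kept every library. Replicate numbers, taken from the descriptions within a set, were checked by the correlation of same-numbered libraries' deviations from their group means. It was above 0.1 for every pair only in the enriched against input comparison of JL0361 (0.161, 0.106 and 0.10035). Library 1 there held few tags in peaks in both groups, 1391 enriched and 2666 input. The check therefore cannot tell paired samples from a shared low depth. No batch is named in the labels beyond the set.

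The members and both gene lists were chosen with earlier results of these data known. Named peaks are the one with the most tags in each class, the one that chose the gene, and up to 4 called peaks per gene and fraction comparison. Named list genes are the up to 3 called with the largest difference per list and comparison, and 1 gene named by this rule is not reported here. Sequence comes from RefSeq promoter windows, and 1 window holds a member peak. The sequence under the other peaks was not analysed here.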

Additional observations from a re-analysis of the deposited data

Results flagged for a closer look

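Among groups of 4 to 10 libraries, 16 tests over both genes found 2 values, both of PKP2, that stood far from the rest of their group. Chance gives about 1 such group in 20 tested. PKP2 measured 13.1 CPM in 1 NES enriched arsenite library and 0 in the other three, and that value is a single tag. PKP2 also measured 135.5 CPM in 1 G3BP1 enriched mock library, the highest of 6, from 2 tags.

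In the fractions, the arsenite effect differed between nucleus and cytoplasm by limma's test of the difference itself, on the log2 scale. The difference was 0.71 for all EPS15 peaks, 1.66 for the EPS15 3'UTR, 1.86 for the PKP2 3'UTR and 2.29 for the EPS15 peak at 51356496. Among the list genes it was 2.07 for DSC2, 2.04 for CTNNB1, 1.22 for TFRC, -0.84 for CTNND1, -0.69 for PICALM and -0.58 for EGFR.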

How the results depend on the processing

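The differences called between fractions and treatments kept their sign under every alternative run (pseudocount, filter, scaling, edgeR, replicate block and leaving out a library). The replicate block ended no call of a member or named gene and added the second EPS15 peak for arsenite in the cytoplasm (adjusted p = 0.0471), and in the fractions, where the numbers are only shared (correlations of -0.000397 to 0.0466), the largest move in calls was 929 to 1249 genes between the fractions after arsenite. Leaving out a library moved the count of genes called from 3420 to between 2325 and 3088 (fractions, mock), from 929 to between 228 and 705 (fractions, arsenite), from 2271 to between 743 and 2409 (cytoplasm), from 847 to between 152 and 574 (nucleus), and in JL0361 from 0 to as many as 1728 and from 4 to between 1 and 2955.

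Uncalled values reversed. EPS15 in inputs was 0.061 with a pseudocount 4 times larger, 0.49 in edgeR with library totals and 0.36 with TMM. EPS15 in G3BP1 against NES mock was 0.21, 1.76 and 0.75 in the same order, and 0.40 with a noise-level pair counted once, an alternative chosen after seeing the data. PKP2 there was 0.14 with the larger pseudocount, 1.24 in edgeR with library totals and 1.08 with the pair counted once. In JL0361, EPS15 for arsenite was -0.28 in edgeR with library totals and -0.027 with the replicate block. EPS15 enriched against input was 0.40 scaled to tags in peaks, 0.56 with TMM and 0.39 over all 3 library sets, and PKP2 was -0.63 in edgeR with library totals. For arsenite in the nucleus, the EPS15 intron sum was -0.029 scaled to tags in peaks and the peak at 51355699 was 0.14 with TMM. Member peaks called numbered 3 with TMM (fractions, mock), 1 in edgeR with library totals (fractions, arsenite), 5 at the smaller pseudocount (cytoplasm) and 0 scaled to tags in peaks (interaction).

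Leaving out 1 library gave these ranges. For EPS15: -0.62 to -0.46 (fractions, arsenite), -0.70 to -0.50 (cytoplasm), -0.62 to 0.54 (inputs), -0.685 to 1.32 (G3BP1 against NES, mock), -1.996 to 3.28 (JL0361, arsenite), -2.12 to 1.32 (enriched against input) and, in the nucleus, -0.059 to 0.088 for introns, -0.30 to 0.022 for the peak at 51355699 and -0.44 to 0.19 for that at 51362683. For PKP2: -1.13 to 1.24 (G3BP1 against NES, mock), 3.05 to 4.13 (JL0361, arsenite), 0.022 to 1.91 (enriched against input), 0.019 to 0.40 for introns in the cytoplasm and, between fractions after arsenite, -0.058 to 0.14 for introns and -0.31 to 0.11 for the peak at 32790955. Member peaks called ranged from 0 to 8 (fractions, mock), 0 to 8 (cytoplasm), 0 to 3 (nucleus) and 0 to 1 (interaction). The cause of these moves was not tested. The JL0361 arsenite ranges include fits that left 1 mock library. In the desmosome list after arsenite between fractions, scaling to tags in peaks gave 2 higher and 1 lower in place of 1 and 2, and in the nucleus it turned both lists' medians from 0.04 and 0.06 to -0.004. In the enriched libraries 1 tag can be worth 214.5 CPM, which limits every level there.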
